A study of Mus musculus with 8 samples.

Results

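Haematopoietic stem cells renew themselves under the control of a small set of regulatory proteins, and 9 genes for such proteins are described here in mouse bone marrow cells: Hlf, Nfil3, Prdm16, Mecom, Mycn, Myc, Hmga2, Msi2 and Bmi1. They were chosen by symbol as known self-renewal regulators, at a time when earlier results of these data were known. All 9 were found among the 23284 genes of the count table. RNA had been sequenced from LSK cells, the bone marrow fraction that is negative for lineage markers and positive for Sca-1 and c-Kit and that holds stem cells and multipotent progenitors. The mice were on the C57BL/6 strain and carried a reporter in which green fluorescent protein (GFP) reads out Hdc, the gene for histidine decarboxylase, which makes histamine. LSK cells were sorted by their GFP into Hdc-GFPhi cells (high, 4 libraries) and Hdc-GFPlo cells (low, 4 libraries), each library made from 2000 cells. Both groups come from reporter mice and are separated only by GFP level, so neither is a mutant or a treated group. The age of the mice, and whether a library holds cells of 1 animal or of several, were not given in the sources used here. Cells of Hdc-GFPhi replicate 4 are labelled GFP+ where the rest of that group is labelled GFPhi.

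These regulators act at different levels. Hlf and Nfil3 are leucine zipper transcription factors that bind related DNA sites, Hlf mostly as an activator and Nfil3 mostly as a repressor. Prdm16 and Mecom are paralogous zinc finger proteins with a PR domain, and loss of either depletes mouse stem cells. Myc and Mycn drive growth and biosynthesis and can stand in for each other in haematopoiesis. Hmga2 is a chromatin-bending protein of the Lin28 and let-7 pathway, which sets fetal against adult stem cell behaviour, Msi2 binds messenger RNA and regulates its translation, and Bmi1 is a Polycomb protein that keeps the Ink4a and Arf genes silent.

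Library totals ran from 21041170 to 22470121 counts in Hdc-GFPhi and from 16726179 to 23051277 counts in Hdc-GFPlo. Of 8 LSK identity genes, all were detected, 1 was called higher in Hdc-GFPhi and 1 lower (Cd48), and the summed level was 4392 to 4853 CPM (counts per 1000000 counts of the library, TMM-scaled) in Hdc-GFPhi and 4019 to 5069.6 CPM in Hdc-GFPlo. By a chi-square comparison of counts, Hdc-GFPlo replicate 3 stood furthest from its group (52.5 to 58.2 per degree of freedom, against 13.8 to 19.0 between its other libraries), and no libraries agreed within sampling noise.

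Lineage genes moved with the sort. Early lymphoid markers, of which 7 of 8 were called lower, summed to 517 to 748 CPM in Hdc-GFPhi against 1651 to 2213 CPM in Hdc-GFPlo. B cell markers (4 of 8 called lower) summed to 97.0 to 180.3 CPM in Hdc-GFPhi against 290.3 to 564 CPM in Hdc-GFPlo, and monocyte and dendritic markers (4 of 8 called lower) to 97.1 to 136 CPM in Hdc-GFPhi against 189 to 254 CPM in Hdc-GFPlo. Megakaryocyte markers (1 of 8 called higher) summed to 896 to 966 CPM in Hdc-GFPhi against 542 to 682 CPM in Hdc-GFPlo. No gene was called among the markers (8 listed each, of which 2 to 8 had enough counts to test) of T and NK cells, mature neutrophils, erythroid cells, mast cells and basophils, and stroma and endothelium, and the sums of these 5 lists overlapped between the groups. Neutrophil markers were not scarce, with sums of 1157 to 2095 CPM in Hdc-GFPhi and 1605 to 2598 CPM in Hdc-GFPlo. All 8 of them had a log2 fold change below 0 (median -0.45). Cd3e, Cd8a and Cd8b1 had no count in any Hdc-GFPhi library, Cd8a had none in Hdc-GFPlo, Tpsb2 had none in Hdc-GFPlo and Hba-a1 had none in either. The part of these lineage differences in the levels below was not tested, and in bulk RNA fewer cells of a type and less RNA per cell cannot be told apart.

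Of the 9 regulators, all of which passed the filter on low counts, 1 was called between the groups: Prdm16 was higher in Hdc-GFPhi, by edgeR's quasi-likelihood test with Benjamini-Hochberg adjustment over 13300 genes and a threshold of 0.05. The same test called 0.947% of all tested genes, 0.241% as higher and 0.707% as lower. By their libraries the 9 genes fell into 3 sets. Prdm16, Mecom, Hlf and Mycn were each higher in all 4 Hdc-GFPhi libraries than in any Hdc-GFPlo library, Nfil3 was below in all 4, and Hmga2 lay below in all but Hdc-GFPhi replicate 4. Msi2, Myc and Bmi1 overlapped. Groups that do not overlap were thus seen for 5 of the 9 regulators and for 6.93% of all tested genes (3.38% with Hdc-GFPhi above and 3.55% below), and 6 of the 9 had an unadjusted p under 0.05, against 10.9% of all tested genes. Since the 9 were chosen with earlier results of these data known, these shares are a description and not a test of the set. The median log2 fold change of the 9 was -0.020, beside -4.5e-04 over all tested genes, since 4 values were above 0 and 5 below.

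**Figure D1:**
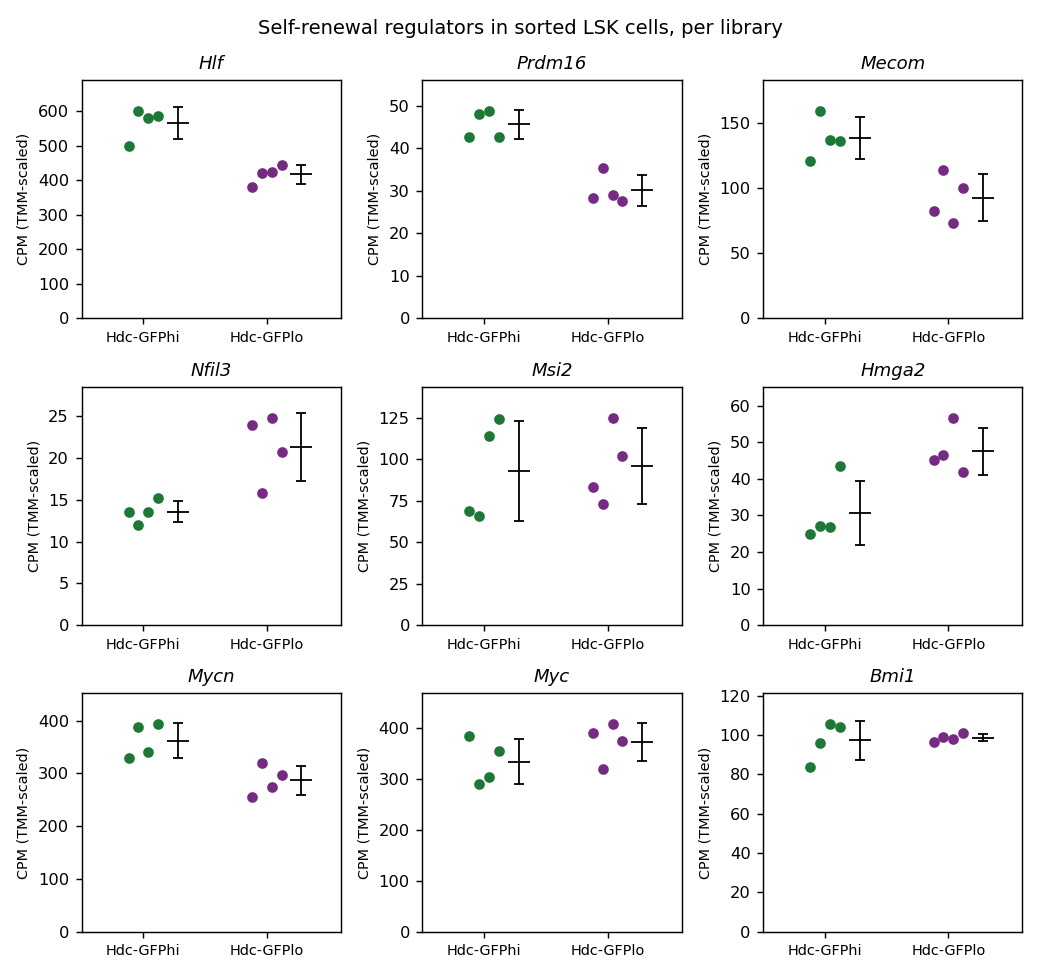
Level of each regulator in CPM (TMM-scaled, linear axis from 0) in the 4 Hdc-GFPhi and the 4 Hdc-GFPlo libraries, with points for libraries in the order of replicates 1 to 4 and a bar for the mean ± SD. Hlf, Prdm16, Mecom and Mycn show no overlap with Hdc-GFPhi above, Nfil3 none with Hdc-GFPhi below, and Msi2 shows a low and a high pair of libraries in each group.

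**Figure D2:**
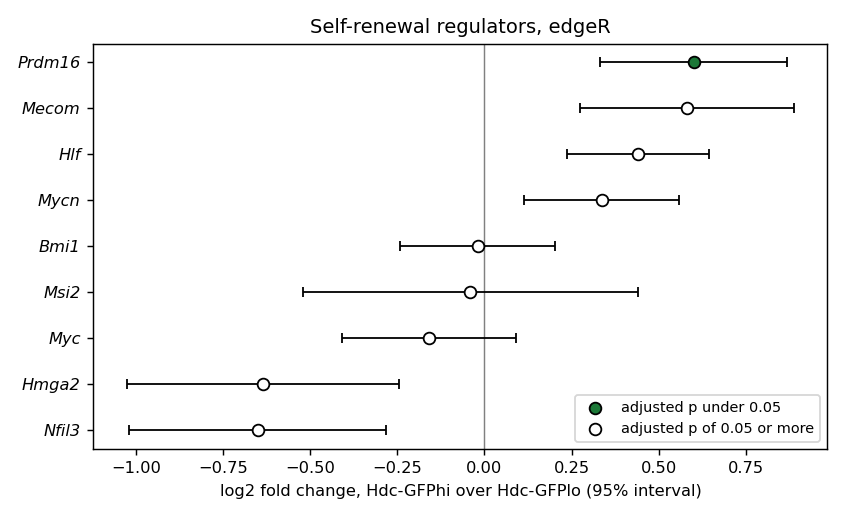
Log2 fold change of each regulator, Hdc-GFPhi over Hdc-GFPlo, with the 95% interval of the edgeR fit over all 8 libraries. The filled point (Prdm16, 0.60) passed an adjusted p of 0.05, and the intervals of Bmi1, Msi2 and Myc include 0.

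The 2 PRDM factors had nearly equal differences. Prdm16, which keeps stem cells in reserve and supports their mitochondrial function, was at 42.7, 48.2, 48.8 and 42.7 CPM in Hdc-GFPhi replicates 1 to 4 and at 28.3, 35.4, 29.1 and 27.5 CPM in Hdc-GFPlo replicates 1 to 4. The lowest Hdc-GFPhi library was above the highest Hdc-GFPlo library, which was replicate 2. Prdm16 had a mean of 45.6 ± 3.34 CPM across Hdc-GFPhi libraries and 30.1 ± 3.62 CPM across Hdc-GFPlo libraries (SD, n = 4 per group), and rose 1.52-fold (log2 fold change 0.60 ± 0.12 SE, 95% interval 0.33 to 0.87, edgeR adjusted p = 0.0403). The call needed nearly all libraries: it held without Hdc-GFPlo replicate 2 (adjusted p = 0.0294) and was lost without any other library (0.0671 without Hdc-GFPhi replicate 4, 0.050021 without Hdc-GFPlo replicate 3, 0.0653 without both, and up to 0.172, without Hdc-GFPlo replicate 1), while the log2 fold change stayed between 0.56 and 0.69.

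Mecom, which encodes the EVI1 and MDS1-EVI1 proteins of long-term stem cells, was at 121, 159.7, 137 and 137 CPM in Hdc-GFPhi and at 82.9, 114, 73.6 and 100.4 CPM in Hdc-GFPlo. Replicate 2 was the highest library in both groups, and the groups did not overlap. The means were 139 ± 15.9 CPM for Hdc-GFPhi and 92.7 ± 18.05 CPM for Hdc-GFPlo (SD, n = 4 per group), with a log2 fold change of 0.58 ± 0.14 (95% interval 0.27 to 0.89) that missed the threshold (edgeR adjusted p = 0.0854). Fits that called it included those without Hdc-GFPlo replicate 2 (0.0413), with DESeq2 (0.00936), with limma voom (0.0444) and with a covariate for replicates 1 and 2 against 3 and 4 (0.0442), and over all alternatives its adjusted p ranged from 0.00936 to 0.509. Within a library the ratio of Prdm16 to Mecom counts was 0.353, 0.302, 0.355 and 0.312 in Hdc-GFPhi and 0.342, 0.311, 0.396 and 0.274 in Hdc-GFPlo. That ratio, which uses no scaling factor, differed by 0.0093 on the log2 scale (exact two-sided permutation test over 70 assignments of libraries, p = 0.886). The leave-one-out values of this difference lay between -0.076 and 0.10.

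The start regions of the 2 genes are shown because they share a stretch of sequence. RefSeq (GRCm38.p6) gives 1 start region for Prdm16 and 2 for Mecom, each of 300 bases with the annotated start at base 251. Capitals mark the longest run that Prdm16 shares with Mecom inside these windows. Prdm16 lies on the minus strand at chr4:154636824-154637123, the upstream Mecom start on the minus strand at chr3:30509710-30510009, and the internal Mecom start on the minus strand at chr3:30013155-30013454.
Prdm16: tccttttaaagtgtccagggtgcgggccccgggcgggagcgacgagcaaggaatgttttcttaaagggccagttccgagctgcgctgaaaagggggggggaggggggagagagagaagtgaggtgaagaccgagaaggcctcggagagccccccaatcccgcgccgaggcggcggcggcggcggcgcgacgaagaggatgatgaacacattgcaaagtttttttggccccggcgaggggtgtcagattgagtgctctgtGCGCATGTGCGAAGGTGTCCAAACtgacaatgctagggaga
Mecom upstream start: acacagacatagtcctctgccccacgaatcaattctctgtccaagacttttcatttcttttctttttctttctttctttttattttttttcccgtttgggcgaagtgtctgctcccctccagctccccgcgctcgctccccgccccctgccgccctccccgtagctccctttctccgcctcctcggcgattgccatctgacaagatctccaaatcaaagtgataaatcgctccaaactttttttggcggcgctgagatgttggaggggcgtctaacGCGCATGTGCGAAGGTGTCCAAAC
Mecom internal start: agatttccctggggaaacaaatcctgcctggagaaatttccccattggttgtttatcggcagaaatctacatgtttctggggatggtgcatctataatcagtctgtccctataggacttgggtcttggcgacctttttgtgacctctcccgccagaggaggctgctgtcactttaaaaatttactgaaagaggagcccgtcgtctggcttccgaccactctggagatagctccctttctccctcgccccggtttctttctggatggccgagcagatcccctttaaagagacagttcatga
The shared run has 24 bases inside the windows. It covers bases 260 to 283 of the Prdm16 window and 277 to 300 of the upstream Mecom window, so in both it lies downstream of the start. Because base 300 is the last of the Mecom window, a longer match could not be seen, and 24 bases is a lower limit. The 24-base run was found in 2 of the 32851 start regions of the table, these 2, and is missing from the internal Mecom window. Among the 51 pairs of start regions from different regulators, the next longest shared run had 12 bases. The counts are per gene and do not separate transcripts of the 2 Mecom starts. GENCODE M21 also lists exons on the opposite strand that overlap Prdm16 (B230104I21Rik), Mecom (Mecomos) and Hmga2 (1700006J14Rik), and without a stated strand setting their reads cannot be told apart from those of the 3 regulators.

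In the wider PRDM family, 10 of 15 genes had enough counts to be tested, Prdm16 was called higher and none was called lower, and the median log2 fold change was 0.036. Prdm11 and Prdm10 had log2 fold changes of 0.51 ± 0.29 (edgeR adjusted p = 0.594) and 0.33 ± 0.23 (0.698). The other 6 tested members lay between -0.13 and 0.051. Of 9 co-repressor genes whose products bind or work with PRDM proteins, none was called (median 0.032). Ctbp2, a corepressor that binds Prdm16 and Mecom, was at 39.4, 37.6, 43.2 and 44.2 CPM in Hdc-GFPhi and at 35.5, 33.4, 34.7 and 36.0 CPM in Hdc-GFPlo, without overlap (log2 fold change 0.24 ± 0.11, edgeR adjusted p = 0.472). Suv39h1, Hdac2 and Ehmt2, which modify histones, had 0.17, -0.16 and 0.13.

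Hlf, a marker and regulator of stem cells from their origin in the embryo, was at 498, 601, 579 and 585 CPM in Hdc-GFPhi and at 379.6, 421, 422 and 444 CPM in Hdc-GFPlo. Replicate 1 was the lowest library of each group, and the groups did not overlap. Its mean was 566 ± 46.2 CPM for Hdc-GFPhi and 417 ± 26.9 CPM for Hdc-GFPlo (SD, n = 4 per group), with a log2 fold change of 0.44 ± 0.094 (95% interval 0.24 to 0.65). Hlf was the gene with the next smallest p after the 126 that passed, and its adjusted p (0.050003, edgeR) was just over the threshold. It passed in 9 of 11 other settings, from 0.00127 with DESeq2 to 0.0493 with upper-quartile factors, and missed in the edgeR fit with DESeq2's size factors and in the fit that lacked both Hdc-GFPhi replicate 4 and Hdc-GFPlo replicate 3 (up to 0.0664). Of the 8 fits that left out 1 library, the one lacking Hdc-GFPhi replicate 1 (0.0463) and the one lacking Hdc-GFPlo replicate 3 (0.0305) called it, and the others did not (up to 0.2204).

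Nfil3, a repressor needed for natural killer and other innate lymphoid cells, was at 13.5, 12.03, 13.6 and 15.2 CPM in Hdc-GFPhi and at 23.97, 15.8, 24.9 and 20.7 CPM in Hdc-GFPlo. All Hdc-GFPhi libraries were lower, though Hdc-GFPlo replicate 2 came close to the highest of them. The counts behind these values ran from 258 to 341 in Hdc-GFPhi and from 266 to 542 in Hdc-GFPlo. The means were 13.6 ± 1.29 CPM for Hdc-GFPhi and 21.3 ± 4.10 CPM for Hdc-GFPlo (SD, n = 4 per group), with a log2 fold change of -0.65 ± 0.17 (95% interval -1.02 to -0.28, edgeR adjusted p = 0.114). Over all alternatives the adjusted p ranged from 0.0133, with DESeq2, to 0.732.

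Taken as a ratio within a library, there were 36.7, 49.9, 42.7 and 38.5 Hlf reads per Nfil3 read in Hdc-GFPhi and 15.8, 26.7, 16.99 and 21.5 in Hdc-GFPlo. Since Hlf lay above and Nfil3 below in all Hdc-GFPhi libraries, these ratios could not overlap. They restate the levels of both genes as a description, and no test is read from them. The ratio was 2.10-fold higher in Hdc-GFPhi, or 1.07 on the log2 scale, and 0.96 to 1.21 with each library left out in turn.

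Of 18 genes for PAR leucine zipper factors and the circadian clock, in which Hlf and Nfil3 act as output factors in other tissues, 17 were tested, with no call, and 12 lay above 0 in log2 fold change (median 0.18, beside 6642 of 13300 tested genes above 0). Tef and Dbp, the other PAR factors, overlapped between the groups. Tef had 74.8 ± 10.7 CPM for Hdc-GFPhi and 72.4 ± 13.3 CPM for Hdc-GFPlo, and Dbp 10.1 ± 1.46 CPM for Hdc-GFPhi and 11.6 ± 1.67 CPM for Hdc-GFPlo (SD, n = 4 per group). Bhlhe40, a clock repressor, had a log2 fold change of 0.50 ± 0.21 (edgeR adjusted p = 0.394) with no overlap of the groups, and the nuclear receptor Rora had 0.41 ± 0.20 (0.488). None of the 11 start regions that the RefSeq table gave for 8 of the regulators carried the PAR and NFIL3 site TTACGTAA or its variant TTATGTAA on either strand, motifs that 0.119% and 0.938% of all 32851 start regions held. The table gave no start region for Myc.

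Mycn, the paralogue of Myc, was at 328, 387, 340.5 and 393 CPM in Hdc-GFPhi and at 256, 319.7, 275 and 297 CPM in Hdc-GFPlo. The groups did not overlap, although Hdc-GFPhi replicate 1 was only just above Hdc-GFPlo replicate 2. Means were 362 ± 32.6 CPM for Hdc-GFPhi and 287 ± 27.3 CPM for Hdc-GFPlo (SD, n = 4 per group), with a log2 fold change of 0.34 ± 0.10 (95% interval 0.11 to 0.56, edgeR adjusted p = 0.194), and no alternative called it (0.0756 to 0.9996).

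Myc, which pushes stem cells towards division and differentiation, was at 385, 291, 305 and 356 CPM in Hdc-GFPhi and at 390.2, 321, 408 and 375 CPM in Hdc-GFPlo. Those ranges overlapped widely. The log2 fold change was -0.16 ± 0.11 (95% interval -0.41 to 0.089, edgeR adjusted p = 0.706), from means of 334 ± 44.1 CPM for Hdc-GFPhi and 374 ± 37.6 CPM for Hdc-GFPlo (SD, n = 4 per group). The ratio of Mycn to Myc reads, which is not corrected for length, was 0.852, 1.33, 1.12 and 1.10 in Hdc-GFPhi and 0.657, 0.997, 0.675 and 0.790 in Hdc-GFPlo. The ratios of the groups overlapped through Hdc-GFPhi replicate 1. They differed by 0.50 on the log2 scale (exact two-sided permutation p = 0.0571, adjusted p = 0.0952 over 5 ratios). The 5 ratios include Hlf over Nfil3, whose p was fixed in advance at the smallest possible value, and counting it lowers this adjusted p.

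No gene of the MYC and MAX network was called among 17 tested of 18, with 7 above 0 and a median of -0.046. Mycl1, another paralogue, had 15 counts over the 4 Hdc-GFPhi libraries and 55 over the 4 Hdc-GFPlo libraries (log2 fold change -2.03 ± 0.77, edgeR adjusted p = 0.326). Max, the partner that MYC proteins need to bind DNA, had 26.7 ± 4.76 CPM for Hdc-GFPhi and 29.8 ± 4.90 CPM for Hdc-GFPlo (SD, n = 4 per group), and Zbtb17, through which Myc represses genes, had a log2 fold change of 0.16. Among 25 growth genes known as MYC targets none was called, 18 lay below 0, and the median was -0.087. Their summed level was 6618 to 7350.3 CPM in Hdc-GFPhi and 6764 to 8247 CPM in Hdc-GFPlo. Tfrc, the transferrin receptor, had the smallest p of these, with 64.4, 117, 77.2 and 102 CPM in Hdc-GFPhi against 146, 152, 111 and 102 CPM in Hdc-GFPlo, which overlap (log2 fold change -0.50 ± 0.19, edgeR adjusted p = 0.313). The chaperonin Hspd1, the growth regulator Pa2g4 and the nucleolar protein Npm1 had -0.27, -0.25 and -0.30.

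**Figure D3:**
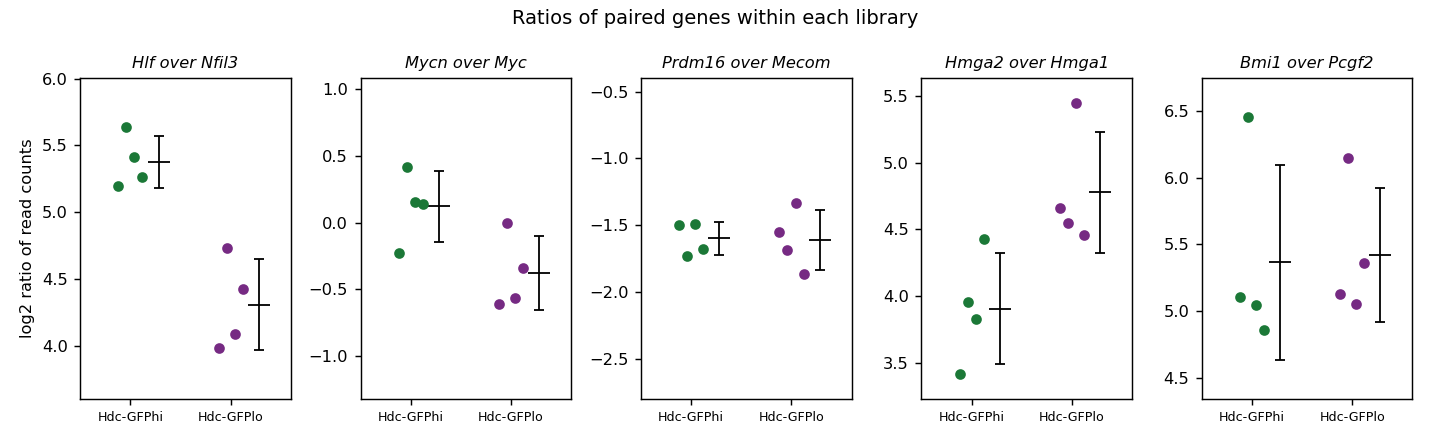
Log2 ratio of read counts of 2 genes within each library (0.5 added to each count), for 4 Hdc-GFPhi and 4 Hdc-GFPlo libraries, with bars for the mean ± SD; each panel spans the same number of log2 units around its own centre. Hlf over Nfil3 is 1.07 higher in Hdc-GFPhi with no overlap, while Prdm16 over Mecom differs by 0.0093.

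Hmga2, which is abundant in fetal stem cells and declines with age, was at 24.9, 27.1, 26.9 and 43.6 CPM in Hdc-GFPhi and at 45.2, 46.5, 56.8 and 41.9 CPM in Hdc-GFPlo. Hdc-GFPhi replicates 1 to 3 lay well below every Hdc-GFPlo library, and replicate 4 lay among them. The means were 30.6 ± 8.72 CPM for Hdc-GFPhi and 47.6 ± 6.44 CPM for Hdc-GFPlo (SD, n = 4 per group), with a log2 fold change of -0.64 ± 0.18 (95% interval -1.03 to -0.24) that was not called (edgeR adjusted p = 0.150). Without Hdc-GFPhi replicate 4 it was called lower (log2 fold change -0.85, adjusted p = 0.0187), as it was with Hdc-GFPlo replicate 3 left out as well (0.0176), with DESeq2 (0.0343) and with voom (0.0369).

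Of 12 genes of the Lin28 and let-7 pathway around Hmga2, 11 were tested, Igf2bp2 was called higher and none was called lower, and 6 lay above 0 and 5 below (median 0.052), close to the even split of all tested genes. Igf2bp2, an RNA-binding protein that protects growth transcripts and whose gene Hmga2 is known to activate, was at 16.1, 15.4, 12.3 and 16.0 CPM in Hdc-GFPhi and at 8.09, 7.72, 8.19 and 10.1 CPM in Hdc-GFPlo. It rose by 0.81 ± 0.17 on the log2 scale (edgeR adjusted p = 0.0462), and the call was lost whichever library was left out (0.0543 to 0.173). Its paralogue Igf2bp3, whose expression belongs to the fetal Lin28b programme, was at 17.9, 9.79, 19.4 and 14.4 CPM in Hdc-GFPhi and at 33.6, 17.6, 35.9 and 31.2 CPM in Hdc-GFPlo. Replicate 2 was the lowest of each group, and the groups overlapped through it (log2 fold change -0.94 ± 0.25, edgeR adjusted p = 0.111). Lin28b, the protein that blocks let-7 processing, had 44, 70, 67 and 53 counts in Hdc-GFPhi and 30, 18, 16 and 33 counts in Hdc-GFPlo, a low level without overlap (log2 fold change 1.08 ± 0.35, edgeR adjusted p = 0.217), while Lin28a had 27 counts over all Hdc-GFPhi libraries and 50 over all Hdc-GFPlo libraries. Hmga1, the paralogue of Hmga2, had 23 to 52 counts per library. Since the treatment of reads that match more than 1 place was not given in the sources used here, Hmga1 levels are uncertain. The ratio of Hmga2 to Hmga1 is uncertain too. It was lower by 0.87 on the log2 scale in Hdc-GFPhi without overlap, but the replicate 4 libraries nearly met (4.43 in Hdc-GFPhi and 4.46 in Hdc-GFPlo). The exact two-sided permutation p was 0.0286, the smallest that 4 against 4 libraries allow, and the adjusted p was 0.0714 over 5 ratios. That adjusted p is lowered by counting the Hlf over Nfil3 ratio, whose p was fixed in advance, among the 5.

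Msi2, a Musashi protein that sustains stem cell proliferation, was at 68.8, 65.8, 114 and 124 CPM in Hdc-GFPhi replicates 1 to 4 and at 83.3, 72.8, 125 and 102 CPM in Hdc-GFPlo replicates 1 to 4. In both groups replicates 1 and 2 were low and replicates 3 and 4 were high, while the groups overlapped. Replicates 3 and 4 had a mean of 119 CPM for Hdc-GFPhi and 114 CPM for Hdc-GFPlo, and replicates 1 and 2 a mean of 67.3 CPM for Hdc-GFPhi and 78.1 CPM for Hdc-GFPlo. The log2 fold change was -0.041 ± 0.22 over all libraries (95% interval -0.52 to 0.44, edgeR adjusted p = 0.977), -0.22 in replicates 1 and 2 alone and 0.067 in replicates 3 and 4 alone. That interval was the widest among the 9 regulators.

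Its paralogue Msi1 had 0 counts in Hdc-GFPhi and 1 in Hdc-GFPlo. Of 8 genes for Musashi proteins, their partners and targets 7 were tested and none was called (median -0.0039). Syncrip, an RNA-binding partner of Msi2, was at 143, 170.0, 280.2 and 233 CPM in Hdc-GFPhi and at 263, 237, 287 and 284 CPM in Hdc-GFPlo, so that Hdc-GFPhi replicates 1, 2 and 4 were below every Hdc-GFPlo library and replicate 3 lay among them (log2 fold change -0.37 ± 0.18, edgeR adjusted p = 0.478). The Notch inhibitor Numb, a known Musashi target, and the Ikaros factor Ikzf2 had 0.19 and 0.18.

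Bmi1, a Polycomb subunit, had the smallest log2 fold change of the 9 in size. It was at 83.6, 95.9, 105 and 104 CPM in Hdc-GFPhi and at 96.4, 98.7, 98.2 and 101 CPM in Hdc-GFPlo. The Hdc-GFPlo libraries lay inside the Hdc-GFPhi range. The log2 fold change was -0.020 ± 0.10 (95% interval -0.24 to 0.20, edgeR adjusted p = 0.976), and it was 0.0032 with no composition factor. Its paralogue Pcgf2, which can replace it in the complex, had 23 to 80 counts per library, and the ratio of Bmi1 to Pcgf2 differed by -0.054 on the log2 scale (exact two-sided permutation p = 0.8286, adjusted p = 0.886 over 5 ratios). Leaving out 1 library gave values from -0.42 (Hdc-GFPhi replicate 2 left out) to 0.19 (Hdc-GFPlo replicate 2 left out), of either sign.

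Polycomb repressive complex 1, in which Bmi1 helps Rnf2 to ubiquitinate histone H2A, had 20 tested genes and no call, with 8 above 0 and a median of -0.050. Cbx6, a chromobox subunit, came closest: it was at 196, 199.8, 189 and 183 CPM in Hdc-GFPhi and at 132, 148, 125 and 167 CPM in Hdc-GFPlo, without overlap (log2 fold change 0.42 ± 0.11, edgeR adjusted p = 0.0986). Phc1 and Scmh1, which link Polycomb complexes to each other, had 0.28 and 0.24, and the ligase Rnf2 had -0.27 (adjusted p of 0.402, 0.426 and 0.430). Of the genes that Bmi1 silences, Cdkn2a had 0 counts over the 4 Hdc-GFPhi libraries and 3 over the 4 Hdc-GFPlo libraries, and Cdkn2b had 11 over the Hdc-GFPhi libraries and 1 over the Hdc-GFPlo libraries, too few to test. None of the 5 tested Ink4 and p53 genes was called (median -0.035). Cdkn1a, the p21 cell cycle inhibitor, had a log2 fold change of -0.58 ± 0.36 (edgeR adjusted p = 0.635), and Trp53, Mdm2 and Cdkn2d had 0.13, -0.096 and 0.10. The E-box CACGTG, the site of Myc and Max, occurred in the start regions of Bmi1 (base 36 of 300) and Msi2 (bases 125 and 256 of the first of 3 overlapping windows) and of no other regulator in the table, while 7.15% of all start regions held it; a match does not show binding.

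**Figure D4:**
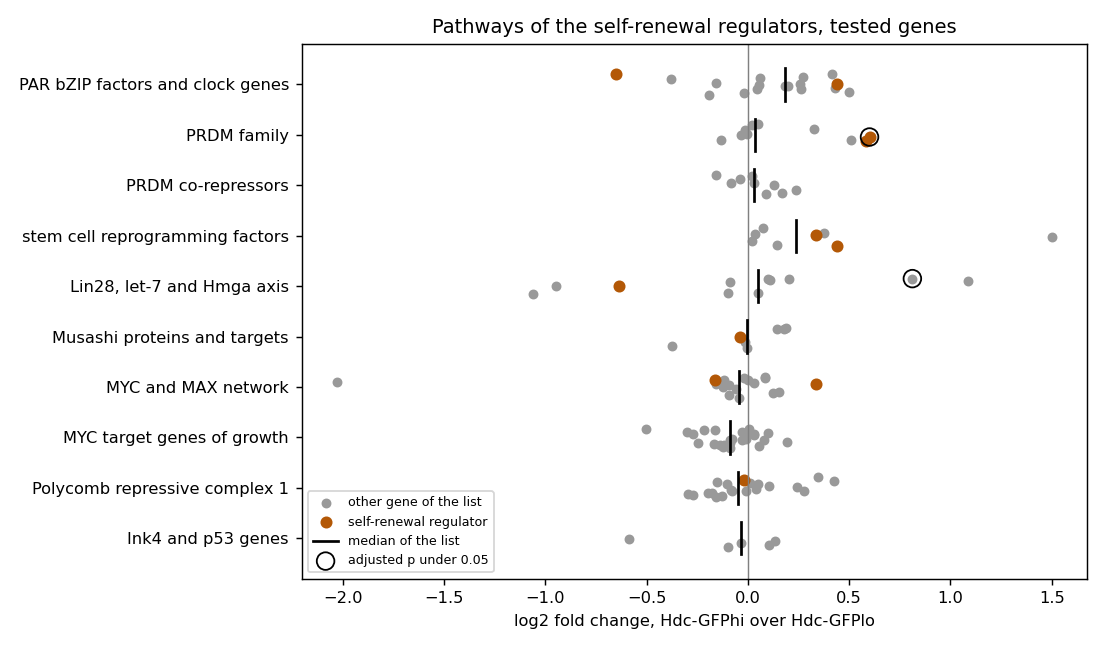
Log2 fold change, Hdc-GFPhi over Hdc-GFPlo, of each tested gene in 10 pathway lists of the regulators (a gene can be in several lists), with a vertical bar for the list median and a ring for genes called at an adjusted p of 0.05. The rings mark Prdm16 and Igf2bp2, and the list medians lie between -0.087 and 0.24.

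Hlf and Mycn also belong to a set of 8 factors that turn committed mouse blood cells back into stem-like cells when expressed together. All 8 were tested, with no call, and all 8 lay above 0 in log2 fold change (median 0.24). Meis1, a homeobox factor of the set, was at 489, 545, 541 and 515 CPM in Hdc-GFPhi and at 462, 481, 445 and 505 CPM in Hdc-GFPlo, which overlap (log2 fold change 0.14 ± 0.086, edgeR adjusted p = 0.620). Runx1t1, a transcriptional corepressor, had 21, 75, 16 and 29 counts in Hdc-GFPhi and 5, 17, 11 and 9 counts in Hdc-GFPlo (log2 fold change 1.5 ± 0.61, edgeR adjusted p = 0.368). Lmo2, a cofactor of blood transcription factors, and the zinc finger gene Zfp37 had log2 fold changes of 0.034 and 0.38.

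Per kilobase of the longest coding transcript, the 9 levels kept the same order in both groups. Myc led with 124 to 165 CPM per kilobase in Hdc-GFPhi and 137 to 174 in Hdc-GFPlo. Mycn followed with 123 to 147 in Hdc-GFPhi, overlapping Myc there, and with 95.8 to 119.5 in Hdc-GFPlo, below Myc. Hlf came next, with 88.2 to 106 in Hdc-GFPhi and 67.3 to 78.7 in Hdc-GFPlo, below Mycn in each group. A wide step down led to Bmi1, at 23.3 to 29.3 in Hdc-GFPhi and 26.8 to 28.1 in Hdc-GFPlo, and to Mecom, at 21.2 to 28.1 in Hdc-GFPhi, where the 2 overlapped, and 12.9 to 20.03 in Hdc-GFPlo, where they did not. Msi2 had 10.2 to 19.3 in Hdc-GFPhi and 11.3 to 19.5 in Hdc-GFPlo, overlapping Mecom in Hdc-GFPlo. Hmga2 (6.54 to 11.4 in Hdc-GFPhi and 10.99 to 14.9 in Hdc-GFPlo) overlapped Msi2 and Nfil3 in both groups, and Nfil3 (5.94 to 7.498 in Hdc-GFPhi and 7.79 to 12.3 in Hdc-GFPlo) was above Prdm16, which came last with 4.97 to 5.68 in Hdc-GFPhi and 3.20 to 4.12 in Hdc-GFPlo. With the median coding transcript in place of the longest, Bmi1 had rank 3 in Hdc-GFPhi and rank 2 in Hdc-GFPlo, and Mycn had rank 4 in both, so the order of the upper genes depends on which transcripts were present. Prdm16, the called gene, was thus the lowest of the 9 per length.

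**Figure D5:**
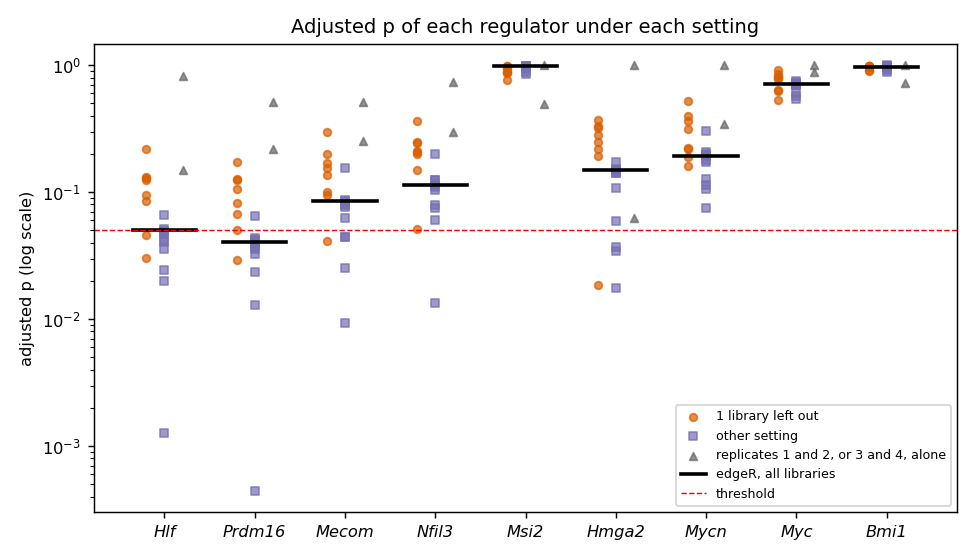
Adjusted p (log axis) of each regulator in the edgeR fit with all libraries (bar), in fits without 1 library, under other settings and with replicates 1 and 2 or 3 and 4 of each group alone; the dashed line is 0.05. Prdm16, Hlf, Mecom, Nfil3 and Hmga2 have settings on both sides of the line, and Msi2, Myc, Bmi1 and Mycn stay above it at every setting.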

How the data were processed

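Gene counts were deposited by the authors as whole numbers, not normalized, and HTSeq 0.6.1, TopHat2 (2.04 as written there), Bowtie2, bcl2fastq 1.8.4 and build mm9 are named per the submitters' processing notes. Their settings, annotation, strand and multi-mapping rules were not given in the sources used here. RNA of 2000 cells per library was amplified (SMARTer, Nextera XT, per the labels' protocols) without molecular identifiers, so copies of a molecule count separately. Groups and replicate numbers are from the sample titles, and columns were matched by library code. Nothing says that replicates are separate animals, so the spread behind each p-value, that between these samples, may be technical.

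Genes were filtered with filterByExpr (13300 of 23284 kept), scaled by TMM and tested with edgeR 4.0.16 (robust quasi-likelihood, R 4.3.3), Hdc-GFPhi over Hdc-GFPlo, with no covariate. Alternatives used DESeq2 1.42.0, limma 3.58.1 voom, other scalings and filters, a replicate block, a covariate for replicates 1 and 2 against 3 and 4, and left-out libraries; fits of replicates 1 and 2 or 3 and 4 alone were added after seeing the data. The code was tested on simulated data. The regulators, lists, ratios and alternatives were chosen with earlier results of these data known. All 9 regulators are named, and of each pathway list the called genes and up to 4 with the smallest p; Tef, Dbp, Max, Lin28a, Msi1, Cdkn2a, Cdkn2b, Lmo2 and Zfp37 were added after their values were seen. Transcript lengths came from GENCODE M21, start regions from RefSeq GRCm38.p6 (8 of 9 regulators matched); protein sequences were not used here.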

Additional observations from a re-analysis of the deposited data

Results flagged for a closer look

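Among 28 sets of 4 libraries examined (9 regulators and 5 ratios in each group), 2 held a library far from the other 3, where chance gives about 1 in 20. Hmga2 was at 5.45 on the log2 CPM scale in Hdc-GFPhi replicate 4, against 4.64 to 4.77 in the other Hdc-GFPhi libraries. The log2 ratio of Bmi1 to Pcgf2 counts was 6.45 in Hdc-GFPhi replicate 2, against 4.86 to 5.11 in the other Hdc-GFPhi libraries, and Pcgf2 had 23 counts in that library.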

How the results depend on the processing

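Of the 9 regulators, 1 passed in the fit reported. The number was 2 with no robust estimation, no filter, a filter of 50 counts in 4 libraries, upper-quartile factors or no composition factor, 3 with the covariate for replicates 1 and 2 against 3 and 4, 4 with voom, 5 with DESeq2, and 0 in replicates 1 and 2 alone or 3 and 4 alone. With 1 library left out it was 0 to 2, and it was 0 where Hdc-GFPlo replicate 1, Hdc-GFPlo replicate 4, Hdc-GFPhi replicate 2 or Hdc-GFPhi replicate 3 was missing. Without Hdc-GFPhi replicate 4, alone or together with Hdc-GFPlo replicate 3, the gene called was Hmga2 and not Prdm16. All genes called numbered 126, and 404 with DESeq2, 278 with voom, 275 with the covariate, 34 and 19 in replicates 1 and 2 and 3 and 4 alone, and 52 to 146 with 1 library left out. The cause was not tested, beyond fewer libraries in the smaller fits.

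Hlf was called at log2 fold changes of 0.45 (upper quartile), 0.46 (no composition factor), 0.44 (each of no filter, 50 counts, DESeq2, no robust estimation and the covariate) and 0.43 (voom). Mecom was called at 0.58 with DESeq2 or the covariate and 0.53 with voom, Nfil3 at -0.65 with DESeq2, and Hmga2 at -0.64 with DESeq2, -0.65 with voom and -0.75 without Hdc-GFPhi 4 and Hdc-GFPlo 3 together. Prdm16 was not called without those 2 (0.63), in replicates 1 and 2 alone (0.51) or in 3 and 4 alone (0.69). Values with 1 library left out were 0.56 to 0.69 for Prdm16, 0.40 to 0.50 for Hlf, 0.50 to 0.70 for Mecom, -0.77 to -0.55 for Nfil3, -0.85 to -0.52 for Hmga2, 0.29 to 0.39 for Mycn, -0.23 to -0.099 for Myc, -0.21 to 0.13 for Msi2 and -0.054 to 0.047 for Bmi1. Msi2 turned to 0.067 in replicates 3 and 4 alone, and Bmi1 to 0.073 there and 0.0032 with no composition factor. The 5 ratios moved by less than the spread between libraries with a prior count of 2 or a library left out.

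Deviations of same-numbered libraries correlated at 0.257, 0.347, 0.0755 and 0.100, not all over 0.1, so the numbers were not taken as pairs. Hdc-GFPhi libraries 1 and 2 correlated best with their own number and 3 and 4 with each other's (0.212 and 0.322), a hint from the data, not the design. With the replicate number as a block, 224 genes and 3 regulators were called, Hlf at 0.44, Mecom at 0.59 (adjusted p = 0.0254) and Prdm16 at 0.60. The ratio differences under the pairing were unchanged as means (1.07 for Hlf over Nfil3), and 4 pairs allow no exact p below 0.125. Low counts limit Mycl1, Lin28a, Lin28b, Runx1t1, Pcgf2, Hmga1, Msi1, Cdkn2a and Cdkn2b.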
